A study of Mus musculus with 48 samples.

Results

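Cell proliferation genes are those a cell raises when it copies its DNA and divides. A set of 38 such genes, listed by symbol, was followed here in mice on 4 feeding histories, in their white fat (white adipose tissue, WAT), brown fat (BAT) and liver. All 38 were found among the 25913 genes of the count tables, of which 25012 have a symbol in the GENCODE M21 annotation. The rule that lists them uses symbols only and no measured value, but the members were chosen with earlier results of these data known. Of the members, 11 act in DNA replication, 3 are transcription factors of the cell cycle, and 9 are cyclins, mitotic kinases or parts of the anaphase-promoting machinery. A further 6 belong to the kinetochore and its checkpoint, 7 build the spindle or divide the cell, and 2, Mki67 and Top2a, coat or untangle chromosomes.

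RNA came from female C3B6F1 hybrid mice, and the 48 libraries comprised 22 of WAT, 20 of BAT and 6 of liver. AL mice ate without limit, DR mice received 60% of the food eaten by AL mice from 12 weeks of age on, ALDR mice were switched onto the restricted diet after eating freely, and DRAL mice were refed after being restricted. The late switches took place at 24 months, and old animals are labelled 26 months, although the protocol gives a slightly later age. At 5 months WAT and BAT each had 3 AL and 3 ALDR libraries, the latter after 2 months of restriction. At 26 months WAT had 3 AL, 3 DR, 5 ALDR and 5 DRAL libraries, BAT had 3 AL, 3 DR, 5 ALDR and 3 DRAL libraries, and for liver 3 libraries each of ALDR and DRAL were used. The protocol names epididymal fat although all mice were female, so the depot dissected is uncertain. Titles of the BAT ALDR libraries read ADRL, and these were placed by their descriptions. WAT and liver libraries held RNA depleted of ribosomal RNA and BAT libraries polyadenylated RNA, so levels were not compared between tissues. Whether different tissues came from the same animals is not stated.

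Entry into the cell cycle is driven by E2F factors, which switch on replication genes such as those of the MCM helicase and the nucleotide enzymes. Genes of mitosis peak later and are held off in resting cells by the DREAM complex, which reads CHR elements close to their starts beside CCAAT boxes bound by NF-Y. MYBL2 and FOXM1 then help to activate them, CDK1 with its B-type cyclins starts mitosis, and the anaphase-promoting complex ends it by marking cyclins for degradation. Mature fat cells rarely divide, and the dividing cells known in adipose tissue include progenitors, endothelial cells and macrophages. In bulk tissue, fewer dividing cells and less of these RNAs per cell cannot be told apart.

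RefSeq promoter windows (GRCm38.p6, 250 bases before to 50 after the start) matched 32 of the 38 members and gave 34 windows, because Mcm7 and Prc1 have 2 each. Mcm4, Foxm1, Ccna2, Aurkb, Kif20a and Tpx2 had none. Both strands were searched for the CHR element (TTTGAA or TTCGAA), an E2F site and the CCAAT box (CCAAT). The E2F site was taken as TTCCCGC, with a G in the middle as TTCGCGC, or with other centres, spelled as TTGCCGC in a further form and as TTGGCGC in the last. The 6 promoters below, of 4 mitotic genes and 2 helicase genes, are shown because they carry the elements that set the role groups apart and belong to members described in the results. Each runs 5′ to 3′ in the direction of the gene, from 180 bases before to 20 bases after the RefSeq start, and capitals mark the matches.
Cdk1 (chr10:69352893-69353092, minus strand): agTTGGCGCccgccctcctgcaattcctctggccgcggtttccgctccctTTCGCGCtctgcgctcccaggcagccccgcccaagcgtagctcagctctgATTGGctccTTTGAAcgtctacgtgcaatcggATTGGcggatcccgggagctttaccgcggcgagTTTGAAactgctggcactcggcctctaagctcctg
Ccnb2 (chr9:70421535-70421734, minus strand): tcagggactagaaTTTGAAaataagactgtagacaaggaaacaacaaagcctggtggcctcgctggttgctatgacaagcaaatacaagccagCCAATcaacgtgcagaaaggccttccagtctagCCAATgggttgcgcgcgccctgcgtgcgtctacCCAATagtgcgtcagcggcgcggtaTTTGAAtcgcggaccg
Top2a (chr11:99024170-99024369, minus strand): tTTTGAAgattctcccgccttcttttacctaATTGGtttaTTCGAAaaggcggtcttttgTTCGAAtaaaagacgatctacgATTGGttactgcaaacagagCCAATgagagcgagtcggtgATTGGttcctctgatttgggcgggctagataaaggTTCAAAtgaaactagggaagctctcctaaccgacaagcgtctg
Mki67 (chr7:135716360-135716559, minus strand): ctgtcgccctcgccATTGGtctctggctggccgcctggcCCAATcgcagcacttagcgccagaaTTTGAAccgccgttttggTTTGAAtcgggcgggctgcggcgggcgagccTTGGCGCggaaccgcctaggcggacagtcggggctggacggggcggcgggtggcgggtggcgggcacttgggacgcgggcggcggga
Mcm5 (chr8:75109329-75109528, plus strand): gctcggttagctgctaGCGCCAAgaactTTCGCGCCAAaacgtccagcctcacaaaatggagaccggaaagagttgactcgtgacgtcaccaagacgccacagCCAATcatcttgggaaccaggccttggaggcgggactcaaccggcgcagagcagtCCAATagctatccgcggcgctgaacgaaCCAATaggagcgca
Mcm6 (chr1:128359686-128359885, minus strand): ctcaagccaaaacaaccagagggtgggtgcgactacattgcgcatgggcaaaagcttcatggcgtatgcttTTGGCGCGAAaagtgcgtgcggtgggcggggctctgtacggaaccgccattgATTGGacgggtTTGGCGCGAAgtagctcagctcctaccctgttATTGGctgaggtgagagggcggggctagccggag

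The CHR element lay in 17 of 21 windows of members other than replication genes and transcription factors (81.0%), in 2 of 11 replication windows (18.2%) and in 19.2% of all 32851 RefSeq windows of that length. The E2F site showed the opposite order, with 7 of 11 replication windows (63.6%), 3 of the 21 other windows (14.3%) and 9.57% of all windows. A CCAAT box was found in 27 of 34 member windows (79.4%) and in 37.4% of all windows. Of the 34 member windows 19 held a CHR element, and each of these 19 also held a CCAAT box. Mcm5 and Mcm6 had 3 and 5 E2F matches and no CHR element, while Ccnb2 had 2 CHR elements and no E2F match. Cdk1 carried both kinds, and the windows of Tk1, Tyms, Mybl2, E2f1, Birc5 and Nusap1 held none of the 3 motifs. In Ccnb1 and Mcm7 an E2F match shared bases with a CCAAT match, 3 pairs in all, and E2F matches overlapped each other in Mcm3, Mcm5, Mcm6 and Mcm7, as did CCAAT matches in Ube2c. These are matches of letters in a window, and binding was not measured.

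**Figure D1:**
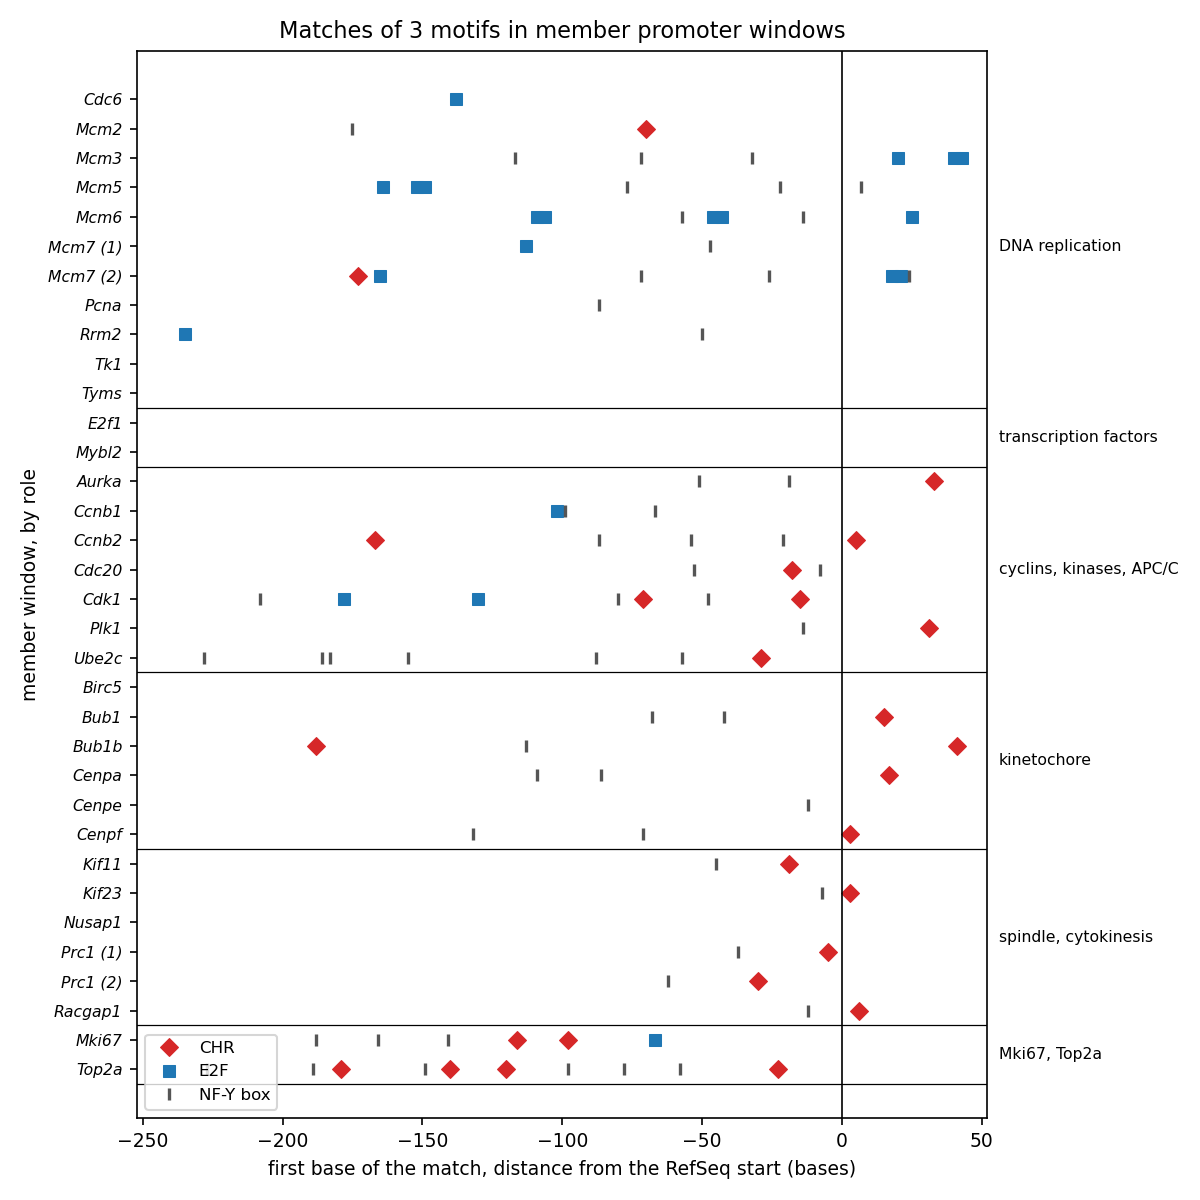
Matches of the CHR element (red), the E2F site (blue) and the CCAAT box (grey, labelled NF-Y box after the factor that binds it) in the promoter windows of members, grouped by role. The x axis is the distance in bases from the RefSeq start to the first base of a match, and CHR matches lie mostly in windows of mitotic genes while E2F matches lie mostly in those of MCM genes.

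Total counts per library ranged from 12247161 to 22500246 for WAT, 6075585 to 19349912 for BAT and 14678489 to 22893099 for liver. At these depths 3 counts equal 0.133 to 0.245, 0.155 to 0.494 and 0.131 to 0.204 CPM (counts scaled to library size), which covers counting error only. After the filter on low counts the number of members tested was 38 for WAT, 37 for BAT and 28 for liver. The libraries carried the markers of their tissue, with the summed adipocyte list at 13160 to 30490 CPM in WAT, the brown adipocyte list at 4216 to 9760 CPM in BAT and the hepatocyte list at 72400 to 103000 CPM in liver. Some WAT libraries also held RNA of other tissues. The 8 skeletal muscle markers summed to 354, 4760 and 14110 CPM in the 3 DR libraries and to 3149 CPM in ALDR replicate 2 at 26 months, against 16.5 to 981 CPM in the other 18 libraries. The 8 hepatocyte markers summed to 2165 CPM in AL replicate 3 and 2987 CPM in ALDR replicate 2 at 26 months and to 2060 CPM in AL replicate 2 at 5 months.

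A proliferation score, the mean log2 CPM over the 38 members, gives a first view of each library. In WAT it was 3.02, 2.67 and 3.11 in the AL libraries and 1.56, 1.41 and 1.68 in the ALDR libraries at 5 months. At 26 months it was 2.7, 3.26 and 3.11 in AL and 2.35, 1.75 and 1.54 in DR. Each restricted library of these 2 groups lay below every AL library of its age. The late-restricted ALDR libraries scored 2.61, 2.25, 2.68, 2.92 and 2.69, and the refed DRAL libraries 2.37, 2.59, 3.25, 3.48 and 2.7, so these groups overlapped each other and AL. The group means differed by -1.39 between ALDR and AL at 5 months, by -1.14 between DR and AL, by -0.39 between ALDR and AL at 26 months and by 0.09 between AL at 26 and at 5 months. The difference between DR and AL was smaller in size without the muscle-rich libraries, which include DR replicates 2 and 3 (1.75 and 1.54) and leave 1 DR library. These score differences are descriptions with no test.

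**Figure D2:**
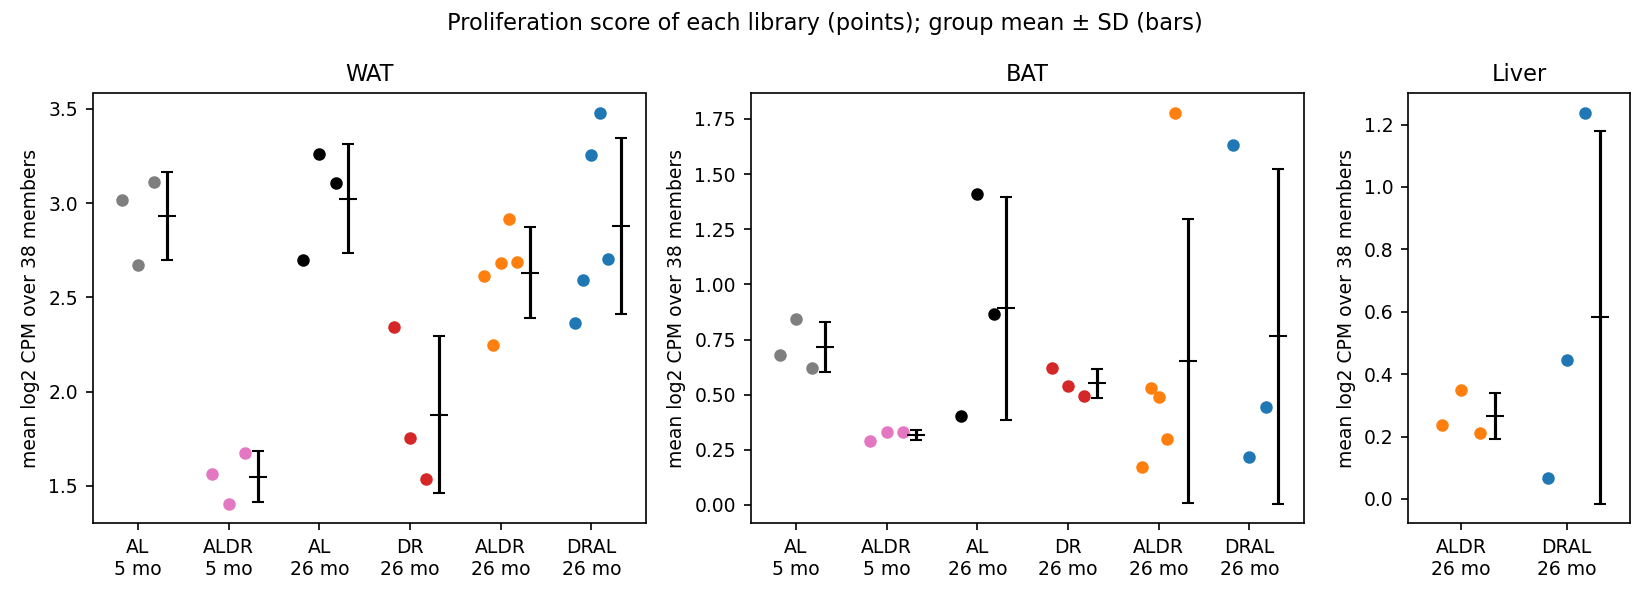
Proliferation score (y axis, mean log2 CPM over 38 members) of each library by diet and age (x axis) in WAT, BAT and liver, with points for libraries and bars for the group mean ± SD. In WAT the young ALDR libraries (1.41 to 1.68) and the DR libraries (1.54 to 2.35) lie lowest, and in BAT and liver single libraries lie far above the rest of their groups.

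Restriction for 2 months in young mice was compared with full feeding at the same age to ask how these genes respond early in life. In WAT 32 of the 38 members fell and none rose, by edgeR's quasi-likelihood test with Benjamini-Hochberg (BH) adjusted p under 0.05. Of all 15828 genes tested 29.2% were called, 14.4% as lower. The median log2 fold change over the members was -1.45, with a range from -2.62 to -0.03, against a median of -0.01 over all genes tested. By role, 7 of 11 replication genes (median log2 fold change -0.74), 3 of 3 transcription factors, 8 of 9 cyclins, kinases and anaphase-promoting genes (-1.75), 5 of 6 kinetochore genes (-1.90), 7 of 7 spindle genes (-1.64) and both chromosome genes (-2.21) fell. Of the 32 calls, 22 held in each of the alternatives run.

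Mki67 (ENSMUSG00000031004), whose protein coats mitotic chromosomes and marks cycling cells, measured 43.8, 25.4 and 47.2 CPM in the AL libraries and 10.5, 8.94 and 7.28 CPM in the ALDR libraries at 5 months. The groups did not overlap, and the log2 fold change was -2.13 (SE 0.46, adjusted p 0.00218). Top2a (ENSMUSG00000020914), the topoisomerase that untangles replicated DNA, measured 43.5, 26.5 and 42.9 CPM in AL and 5.44, 7.54 and 10.0 CPM in ALDR, a log2 fold change of -2.29 (SE 0.46, adjusted p 0.00131). AL replicate 2, the library with hepatocyte RNA, was the lowest of its group for both genes and still lay above every ALDR library.

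Among the cyclins and kinases, Cdk1 (ENSMUSG00000019942), the kinase that starts mitosis, measured 8.29, 6.35 and 9.40 CPM in AL and 2.64, 3.42 and 3.38 CPM in ALDR at 5 months, a log2 fold change of -1.34 (SE 0.29, adjusted p 0.00185). Its partner Ccnb1 (ENSMUSG00000041431), cyclin B1, measured 5.49, 2.54 and 5.82 CPM in AL and 0.935, 1.26 and 0.662 CPM in ALDR (log2 fold change -2.27, SE 0.52, adjusted p 0.00314). Plk1, the polo-like kinase of mitosis, had 1.76, 1.45 and 1.97 CPM in AL and 0.255, 0.140 and 0.515 CPM in ALDR, the latter close to the level of 3 counts, and its log2 fold change was -2.48 (SE 0.50, adjusted p 0.00133). For all 3 genes the ALDR libraries lay below the AL libraries. Aurka, a spindle pole kinase, was the member of its role group that did not pass, with 2.64, 3.20 and 3.16 CPM in AL, 2.04, 1.40 and 1.40 CPM in ALDR and an adjusted p of 0.0579.

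Kinetochore and spindle genes fell about as far. Bub1, a kinase of the spindle checkpoint, measured 3.47, 1.27 and 2.39 CPM in AL and 0.510, 0.349 and 0.294 CPM in ALDR at 5 months, and its log2 fold change of -2.62 (SE 0.52, adjusted p 0.00112) had the largest size of any member. Cenpe, a kinetochore motor, measured 12.0, 5.92 and 13.2 CPM in AL and 2.04, 1.68 and 2.21 CPM in ALDR (log2 fold change -2.39, SE 0.34, adjusted p 7.05e-05). Tpx2, which nucleates spindle microtubules, measured 8.08, 4.53 and 11.4 CPM in AL and 2.13, 1.68 and 1.91 CPM in ALDR (log2 fold change -2.07, SE 0.41, adjusted p 0.00112). Kif11, the motor that separates spindle poles, measured 9.17, 7.07 and 12.6 CPM in AL and 2.13, 2.72 and 3.31 CPM in ALDR (log2 fold change -1.81, SE 0.41, adjusted p 0.00273). In each of these genes no ALDR library reached the lowest AL library. Cenpa, the histone that marks centromeres, did not pass, at 4.97, 4.96 and 6.25 CPM in AL and 3.32, 4.19 and 3.16 CPM in ALDR (adjusted p 0.125).

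Replication genes were divided. Tk1, the S-phase thymidine kinase, measured 6.84, 5.56 and 7.37 CPM in AL and 1.53, 1.05 and 1.25 CPM in ALDR at 5 months (log2 fold change -2.37, SE 0.43, adjusted p 0.000563). Mcm5, a helicase subunit, measured 21.5, 18.9 and 21.2 CPM in AL and 7.65, 7.89 and 9.05 CPM in ALDR (log2 fold change -1.32, SE 0.31, adjusted p 0.00373). Mcm2 (ENSMUSG00000002870), from the same ring, measured 13.8, 8.76 and 9.26 CPM in AL and 6.21, 5.52 and 6.11 CPM in ALDR (log2 fold change -0.84, SE 0.29, adjusted p 0.0339), a call lost in 4 of 14 alternatives. Other subunits of that ring differed little: Mcm4 measured 17.7, 15.6 and 12.1 CPM in AL and 14.3, 14.7 and 15.5 CPM in ALDR, and Mcm7 33.1, 30.8 and 33.1 CPM in AL and 28.7, 33.9 and 29.8 CPM in ALDR. Their log2 fold changes were -0.03 (SE 0.16) and -0.07 (SE 0.10), with overlapping groups. Pcna (ENSMUSG00000027342), the sliding clamp used in replication and in DNA repair, measured 66.4, 55.4 and 58.2 CPM in AL and 54.4, 50.7 and 50.5 CPM in ALDR, and its log2 fold change of -0.21 (SE 0.14, adjusted p 0.292) did not pass.

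The transcription factors fell as well. Foxm1 (ENSMUSG00000001517), an activator of mitotic genes, measured 2.69, 3.45 and 2.67 CPM in AL and 0.850, 0.698 and 1.62 CPM in ALDR at 5 months (log2 fold change -1.47, SE 0.40, adjusted p 0.00923). E2f1 (ENSMUSG00000027490), an activator of replication genes, measured 10.7, 14.5 and 9.33 CPM in AL and 5.53, 5.24 and 8.24 CPM in ALDR (log2 fold change -0.86, SE 0.21, adjusted p 0.00475). In both, every ALDR library lay below every AL library. Foxm1 overlaps Tex52 and Gm44596 on its own strand, and how the authors assigned shared reads is not given.

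The fixed lists of other pathway genes differed in how many members were called, where 29.2% of all genes were. Of 61 further mitotic genes 46 fell and 1 rose (median log2 fold change -1.70), among them Gtse1 (-2.86, SE 0.41, adjusted p 6.63e-05) and Pimreg (-2.90, SE 0.49, adjusted p 0.000289), while Pttg1, the securin that guards sister chromatids, rose by 0.55 (SE 0.13, adjusted p 0.00285). Of 35 further replication genes 14 fell and 1 rose (median -0.62), with Dtl at -1.61 (SE 0.32, adjusted p 0.00105) and Uhrf1, which maintains DNA methylation behind the fork, at -1.88 (SE 0.38, adjusted p 0.00124). Among 10 inhibitors and pocket proteins 4 fell and 2 rose: Cdkn1a, the p53 target p21, fell by 1.70 (SE 0.22, adjusted p 3.66e-05), and Cdkn1c, the inhibitor p57, rose by 1.48 (SE 0.19, adjusted p 2.32e-05). Of the list of 8 G1 cyclins and kinases, which also holds MYC-family transcription factors, Ccnd1, cyclin D1, and the MYC-family gene Mycn fell, and of 16 E2F and DREAM factors 3 fell, with E2f2 at -2.57 (SE 0.46, adjusted p 0.000466), and 1, Rbbp4, rose by 0.44 (SE 0.08, adjusted p 0.000448). The medians of these last 2 lists were 0.08 and -0.03, and their counts, 2 of 8 and 4 of 16, were near the share over all genes.

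The second comparison set DR mice against AL mice at 26 months, to ask whether the same genes stay low in old mice restricted since youth. In WAT 29 of the 38 members fell and none rose, where 26% of all genes were called and 12.5% as lower. The median log2 fold change was -1.23, with a range from -1.97 to -0.25, against 0.00 over all genes tested. Replication genes fell in 8 of 11 cases, transcription factors in 2 of 3, cyclins, kinases and anaphase-promoting genes in 6 of 9, kinetochore genes in 5 of 6, spindle genes in 6 of 7 and chromosome genes in 2 of 2. The count was lowest under 2 alternatives: with the muscle marker score as a covariate 4 members were called (median -0.86), and without the 3 muscle-rich libraries 1 was called (median -0.80). Calls fell over all genes too, to 5.23% lower with the covariate and 2.55% lower without the libraries, and 1 of 38 members is near the latter share. The alternative without the libraries leaves 1 DR library, assumed to vary like the other groups, and the 2 highest muscle sums of the AL and DR groups lie in DR libraries. Fitted with AL and DR alone, 18 were called (9.75% of all genes lower), and without AL replicate 2, AL replicate 3, DR replicate 2 or DR replicate 3 the counts were 15, 17, 14 and 12. The part of muscle RNA in these calls was not tested.

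Cdk1 was the member called in each alternative for this comparison. It measured 6.43, 7.10 and 8.98 CPM in AL and 2.32, 1.98 and 1.42 CPM in DR at 26 months, a log2 fold change of -1.97 (SE 0.29, adjusted p 0.000104). Without the muscle-rich libraries the log2 fold change was -1.72 (adjusted p 0.0316), and over all alternatives the adjusted p ran from 1.37e-08 to 0.0316. All 3 DR libraries lay below the lowest AL library.

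Other members were higher in DR replicate 1 than in the other DR libraries. Mki67 measured 28.3, 73.7 and 48.0 CPM in AL and 27.0, 14.8 and 8.83 CPM in DR at 26 months, with DR replicate 1 just under the lowest AL library (log2 fold change -1.56, SE 0.44, adjusted p 0.0134). Top2a measured 28.7, 48.6 and 46.4 CPM in AL and 21.9, 8.70 and 7.04 CPM in DR (log2 fold change -1.71, SE 0.44, adjusted p 0.00803). Mcm2 measured 12.1, 13.2 and 11.6 CPM in AL and 10.7, 5.39 and 4.75 CPM in DR (log2 fold change -0.83, SE 0.28, adjusted p 0.0372). B cell markers summed to 283, 37.6 and 93.8 CPM in DR replicates 1, 2 and 3. Plasma cell markers summed to 265, 127 and 76.0 CPM in these libraries, and the part of these cells was not tested. In all 3 genes DR replicates 2 and 3, the muscle-rich ones, were far below replicate 1. Without these libraries the log2 fold change of Mki67 was -0.91 (adjusted p 0.367) and that of Top2a -0.94 (adjusted p 0.340), and that of Mcm2 was -0.23 (adjusted p 0.668).

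Pcna, which did not pass at 5 months, fell here: 62.2, 60.8 and 78.7 CPM in AL against 49.0, 33.7 and 36.3 CPM in DR at 26 months (log2 fold change -0.76, SE 0.15, adjusted p 0.000891). Foxm1 measured 2.54, 5.00 and 2.86 CPM in AL and 2.14, 1.63 and 0.988 CPM in DR (log2 fold change -1.12, SE 0.38, adjusted p 0.0365), and E2f1 8.06, 13.6 and 9.82 CPM in AL and 6.14, 7.07 and 6.73 CPM in DR (log2 fold change -0.65, SE 0.21, adjusted p 0.0258). Ccnb1, at 3.41, 6.02 and 5.25 CPM in AL and 3.30, 1.73 and 1.05 CPM in DR, did not pass (log2 fold change -1.27, SE 0.48, adjusted p 0.0614). Ube2c, the ubiquitin-conjugating enzyme of the anaphase-promoting complex, measured 2.21, 2.90 and 3.17 CPM in AL and 2.09, 2.29 and 1.42 CPM in DR (adjusted p 0.379), and it overlaps the fast muscle troponin gene Tnnc2 on the opposite strand. Without the muscle-rich libraries the log2 fold changes of Pcna, Foxm1 and E2f1 were -0.48 (adjusted p 0.134), -0.71 (adjusted p 0.488) and -0.80 (adjusted p 0.166). The libraries were stranded, per the labels, but the counting setting is not given.

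**Figure D3:**
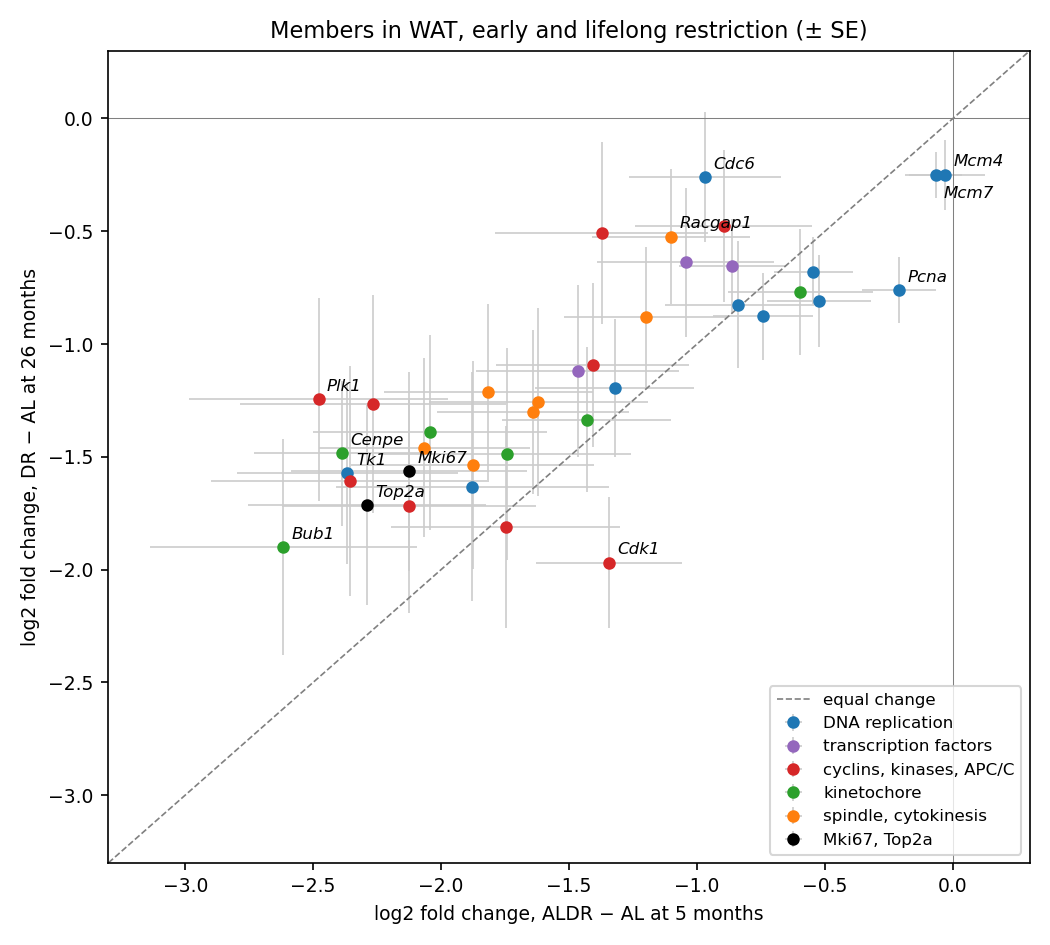
Log2 fold change of each member in WAT with early restriction at 5 months (x axis) against that with lifelong restriction at 26 months (y axis), coloured by role with bars of 1 SE and a dashed line of equal change. The comparisons share no library; all 38 estimates lie below 0 on both axes, Mcm4 and Mcm7 lie nearest to 0 at 5 months, and Cdk1 reaches -1.97 at 26 months.

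In the DR comparison 26% of all genes were called, and of the pathway lists only that of further mitotic genes stood above this share. The replication list (9 of 35), the G1 list (2 of 8), the inhibitors and pocket proteins (2 of 10) and the E2F and DREAM factors (2 of 16) held calls near or below it. Of the 61 further mitotic genes 39 fell (median log2 fold change -1.24), among them Arhgap11a (-1.36, SE 0.20, adjusted p 9.12e-05). Of 35 further replication genes 9 fell (median -0.40), among them Timeless (-1.24, SE 0.22, adjusted p 0.00047). Ccnd1 fell by 1.04 (SE 0.24, adjusted p 0.00345) while Ccnd3 rose by 0.72 (SE 0.16, adjusted p 0.00354). Cdkn1c rose by 0.77 (SE 0.18, adjusted p 0.0044), and so did the retinoblastoma gene Rb1 by 0.41 (SE 0.14, adjusted p 0.0371), the other 8 inhibitors and pocket proteins not passing. Of 16 E2F and DREAM factors 2 were called, both higher, Rbbp4 at 0.34 (SE 0.08, adjusted p 0.00305) and Lin52 at 0.39 (SE 0.12, adjusted p 0.021). Without the 3 muscle-rich libraries 2 of the 61 mitotic genes (median -0.81) and 0 of the 35 replication genes (median -0.15) were called lower, and with the muscle score as a covariate 9 and 3 were. Of all genes 2.55% and 5.23% were called lower in these fits, so the mitotic count without the libraries is near that share. Without those libraries the inhibitors and pocket proteins held 0 calls, so that Cdkn1c and Rb1 no longer passed, the G1 list held 1, which was higher, so that Ccnd1 no longer passed, and the E2F and DREAM list held 1, also higher. These alternatives were added after the data were seen.

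Late restriction was compared with lifelong full feeding to ask whether old mice still respond after a change of diet. None of the 38 members was called in WAT, where 4.36% of all genes were, and 4 had an unadjusted p under 0.05. DESeq2 also called none. The median log2 fold change was -0.41, with 36 of 38 estimates below 0, against 0.01 over all genes tested. Mki67 in ALDR at 26 months measured 32.7, 21.9, 36.5, 48.9 and 42.4 CPM, inside the AL range of 28.3 to 73.7 CPM but for replicate 2 (log2 fold change -0.46, SE 0.38). Cdk1 measured 5.59, 6.20, 5.94, 8.21 and 5.46 CPM (log2 fold change -0.26, SE 0.24), with 4 of 5 libraries below the lowest AL library at 6.43 CPM. Ccnb2, a B-type cyclin, had the lowest estimate, with 1.51, 1.54, 1.98, 2.89 and 2.35 CPM in ALDR and 2.30, 5.85 and 4.05 CPM in AL (log2 fold change -0.98, SE 0.43, adjusted p 0.214).

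Other members gave a similar picture in WAT of late-restricted mice. Top2a measured 27.3, 18.5, 31.2, 33.1 and 37.7 CPM in ALDR at 26 months, and Ccnb1 3.25, 2.08, 3.90, 5.52 and 3.49 CPM. Mcm2 measured 12.8, 5.87, 8.37, 10.3 and 11.3 CPM, and Foxm1 1.74, 2.03, 2.21, 2.69 and 1.97 CPM. E2f1 measured 6.80, 8.99, 8.49, 9.65 and 7.05 CPM, and these 5 genes overlapped the AL libraries. Pcna, at 54.3, 48.3, 53, 54.6 and 53.1 CPM, lay below the lowest AL library in every ALDR library and did not pass (log2 fold change -0.35, SE 0.13, adjusted p 0.123).

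Against lifelong restriction, late restriction left 7 members higher: Cdk1 (log2 fold change 1.71, SE 0.27, adjusted p 0.000654), Aurkb, Bub1b, Tyms, Mcm6, Pcna and Mcm7. Of all genes 12.8% were called, 5.81% as higher, and the members' median was 0.66 against 0.01 over all genes. Without the 3 muscle-rich libraries no member was called (0.055% of all genes higher), with Cdk1 at 1.45 (adjusted p 0.169), fitted on these groups alone 1 was, while DESeq2 called 15. In the fit of these groups alone 2.84% of all genes were called higher, and 1 of 38 members is near that share. Single libraries also moved the count of members called, from 2 without DR replicate 2 or 3 to 18 without DR replicate 1. It was 17 without ALDR replicate 2, 3 without replicate 3 and 4 without replicate 4 or 5. For DESeq2 and these single-library fits the share over all genes is not given.

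The age dependence of the response was tested as an interaction, the change from AL to ALDR at 26 months minus that at 5 months. No member was called in WAT, where 1.34% of genes were, though 19 of 38 had an unadjusted p under 0.05 and DESeq2 called 3. The median interaction was 1.01 on the log2 scale, with 36 of 38 estimates above 0, against 0.01 over all genes. The smallest p of the genes described above was that of Cenpe, whose interaction was 1.73 (SE 0.44, adjusted p 0.0539), followed by Tk1 at 1.93 (SE 0.55, adjusted p 0.0798). Mki67 gave 1.67 (SE 0.60, adjusted p 0.154) and Pcna -0.14 (SE 0.19). Age alone separated none of the members: between AL at 26 and 5 months 0 were called against 0.114% of genes, none had an unadjusted p under 0.05, DESeq2 called 0, and the median log2 fold change was 0.10.

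Refeeding was compared with continued restriction to ask whether the low levels persist once mice eat freely again. In WAT 25 of 38 members were higher in DRAL than in DR and none was lower, where 30.5% of genes were called and 14.6% as higher, with a median log2 fold change of 1.04 against -0.01 over all genes. Cdk1 measured 4.37, 5.26, 10.0, 9.07 and 5.80 CPM in DRAL (log2 fold change 1.85, SE 0.27, adjusted p 0.000115), above all DR libraries. Prc1, which bundles the central spindle, measured 5.87, 7.02, 14.9, 15.4 and 7.65 CPM in DRAL and 4.0, 2.85 and 1.42 CPM in DR (log2 fold change 1.88, SE 0.43, adjusted p 0.00343). Mki67 measured 21.6, 31.5, 49.8, 70.7 and 35.7 CPM in DRAL, which overlaps DR through replicate 1 of each group (log2 fold change 1.31, SE 0.41, adjusted p 0.0205). Replicates 3 and 4 were the highest DRAL libraries for all 3 genes. Top2a measured 19.3, 27.1, 55.3, 66.3 and 33.2 CPM in DRAL (log2 fold change 1.68, SE 0.41, adjusted p 0.00528), Ccnb1 2.5, 4.36, 5.86, 10.0 and 3.94 CPM (1.39, SE 0.45, adjusted p 0.0258) and Pcna 47.4, 51.7, 51.5, 70.6 and 52.2 CPM (0.46, SE 0.13, adjusted p 0.0127). Top2a, Ccnb1 and Pcna overlapped DR as well, where the highest library measured 21.9, 3.30 and 49.0 CPM. Mcm2 measured 9.74, 8.61, 11.7, 13.3 and 11.4 CPM, Foxm1 1.25, 2.18, 3.37, 3.37 and 2.49 CPM and E2f1 8.11, 9.57, 9.58, 9.77 and 8.52 CPM, and these 3 did not pass. With the muscle score as a covariate 1 member was called (0.746% of all genes higher), and without the muscle-rich libraries 0 were (1.3% of all genes higher, members' median 0.65), with Cdk1 at 1.595 (adjusted p 0.0512) and Mki67 at 0.65 (adjusted p 0.528). Without DR replicate 2 the count was 14 and without DR replicate 3 it was 12.

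Refed mice were also set against mice fed fully all their lives. No member was called between DRAL and AL in WAT, where 2.17% of genes were, 2 had an unadjusted p under 0.05, DESeq2 called 0, and the median was -0.10. Between the opposite switches, ALDR and DRAL, Mcm7 alone was called (12.3% of genes were), with 36.9, 30.4, 36.5, 30.0 and 35.8 CPM in ALDR and 26.5, 25.3, 31.7, 30.9 and 27.5 CPM in DRAL (log2 fold change 0.26, SE 0.08, adjusted p 0.0411). Its groups overlapped, the median over members was -0.27, and this call was lost in 11 of 18 alternatives: without the filter, with only these groups, with the replicate block, with the muscle covariate, without the muscle-rich libraries, and without ALDR replicate 1, 3 or 5 or DRAL replicate 1, 2 or 5. Mcm7 hosts the microRNAs Mir25, Mir93 and Mir106b on its strand and overlaps Ap4m1 and Cops6 on the other.

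**Figure D4:**
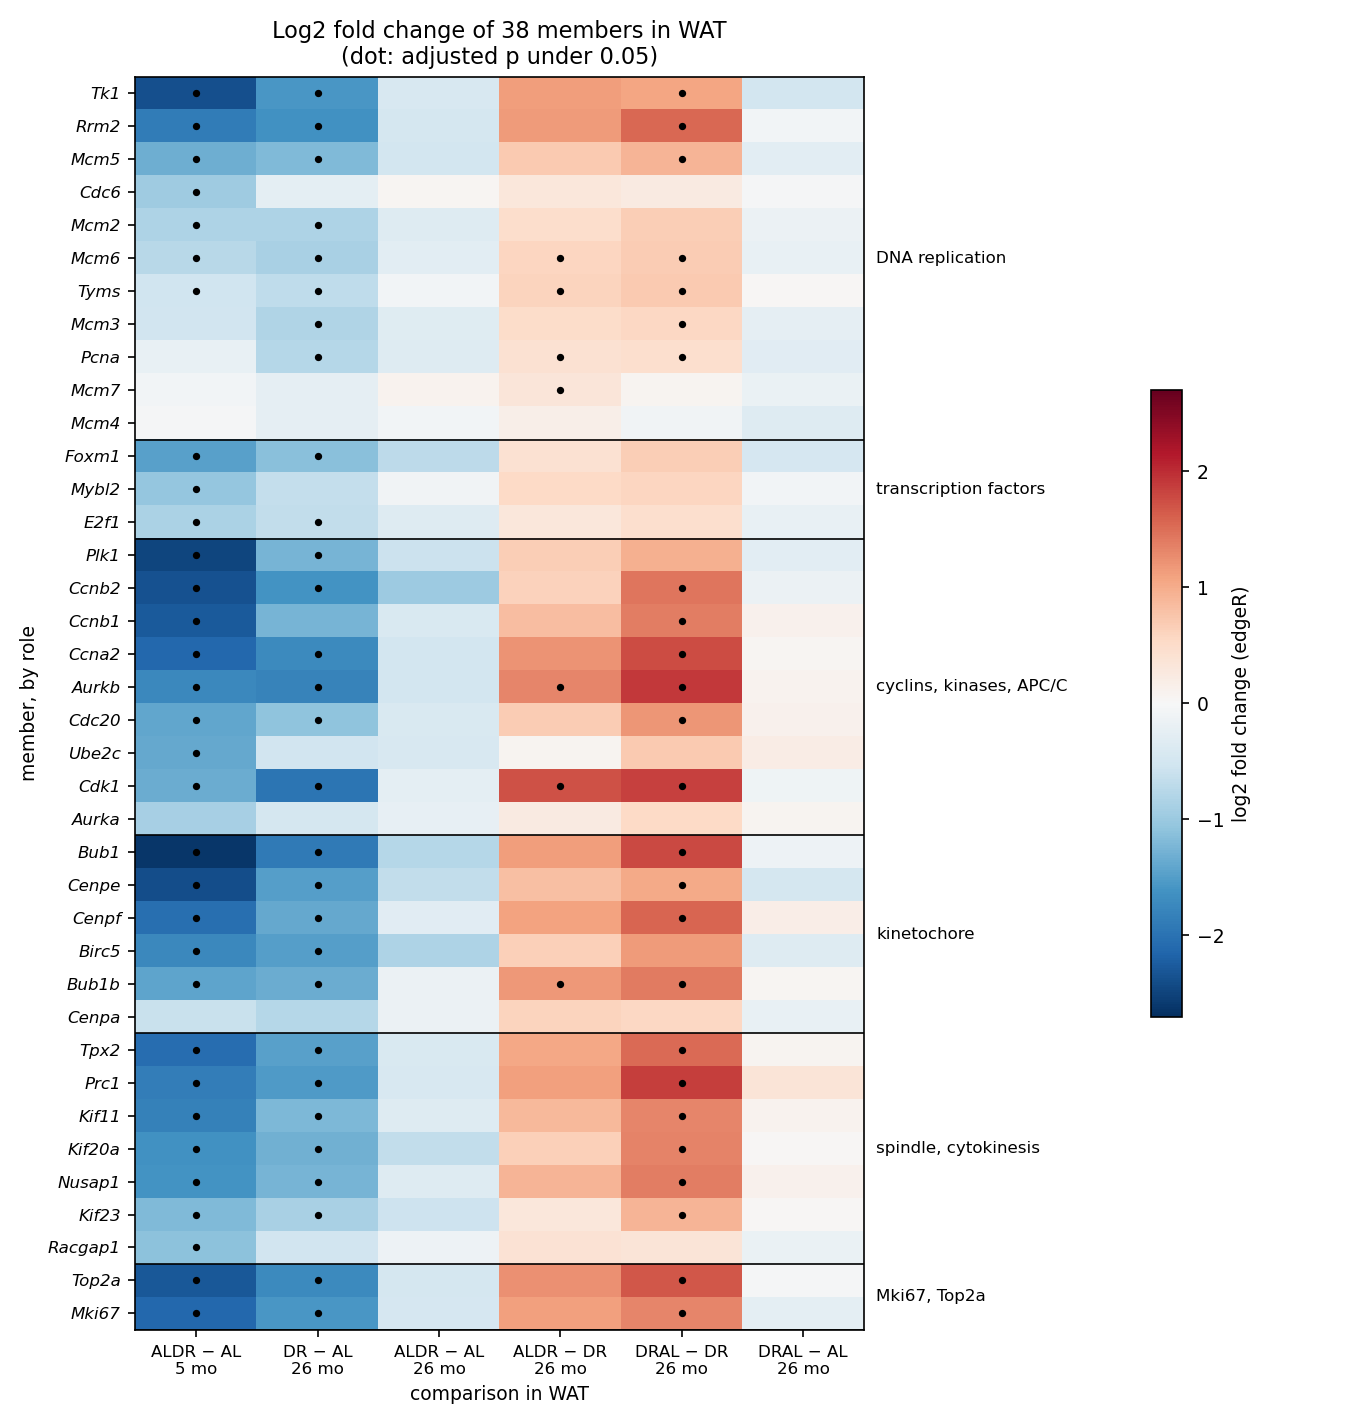
Log2 fold change (colour, from edgeR) of the 38 members (rows, by role) in 6 comparisons of WAT (columns), with a dot where the adjusted p was under 0.05. Blue columns at 5 months (32 dots) and for DR against AL (29 dots) face pale columns for ALDR and DRAL against AL (0 dots) and a red column for DRAL against DR (25 dots).

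Markers of other cells moved with the score in WAT. The 10 macrophage markers summed to 2488 to 3809 CPM in AL and 1574 to 2077 CPM in ALDR at 5 months, and to 2956 to 4759 CPM in AL, 895 to 1329 CPM in DR, 2084 to 3057 CPM in ALDR and 1929 to 4408 CPM in DRAL at 26 months. Both ends of this range were lowest in young ALDR and in DR, the 2 groups with the lowest scores, and their part in the result was not tested. The 8 markers of lipid-associated macrophages, a macrophage state of lipid-laden fat, were lower in young ALDR and in DR when averaged gene by gene. Their mean log2 CPM was 5.51 to 6.94 in AL and 3.29 to 3.69 in ALDR at 5 months, and 6.51 to 7.53 in AL and 3.37 to 3.57 in DR at 26 months. It was 5.37 to 6.51 in ALDR and 4.03 to 5.80 in DRAL at 26 months, so DRAL lay below AL in these markers although its scores overlapped those of AL. Among them Mmp12, a macrophage elastase, measured 119 to 376 CPM in AL and 1.47 to 3.70 CPM in ALDR at 5 months and 178 to 442 CPM in AL and 1.39 to 1.93 CPM in DR at 26 months. Itgax, which encodes CD11c, measured 47.9 to 152 CPM in AL and 3.63 to 5.53 CPM in ALDR at 5 months and 80.5 to 184 CPM in AL and 3.10 to 11.6 CPM in DR. The summed CPM of this list was not lower in the restricted groups (4951 to 8518 CPM in AL and 7444 to 8254 CPM in ALDR at 5 months, 4682 to 6322 CPM in AL and 7586 to 9800 CPM in DR at 26 months), and most of it was Lpl, lipoprotein lipase, which adipocytes also express, at 4123 to 8241 CPM in AL and 7371 to 8197 CPM in ALDR at 5 months. The part of these macrophages in the result was not tested. T cell markers summed to 46.7 to 62.4 CPM in AL and 19.0 to 29.8 CPM in ALDR at 5 months. Markers of neutrophils and granulocyte precursors summed to 7.92 to 16.3 CPM in AL and 3.49 to 4.41 CPM in ALDR at 5 months. Adipocyte markers ran the other way at 5 months, from 17580 to 24100 CPM in AL and from 27690 to 30490 CPM in ALDR, and at 26 months, from 13160 to 15800 CPM in AL and from 19230 to 23650 CPM in DR. Markers of endothelium (1092 to 1326 CPM in AL, 1045 to 1181 CPM in ALDR) and of adipocyte progenitors (1805 to 2714 and 2381 to 3064 CPM) overlapped between the groups at 5 months. At 26 months the endothelium list summed to 1006 to 1262 CPM in AL and 699 to 1127 CPM in DR. The mean log2 CPM of progenitor markers at 26 months was 7.33 to 7.47 in AL, 7.02 to 7.26 in DR, 6.47 to 7.06 in ALDR and 7.08 to 7.58 in DRAL. This measure differs from the sums given for progenitor markers at 5 months, so the 2 ages are not compared. T cell markers at 26 months overlapped, at 58.8 to 130 CPM in AL and 21.4 to 150 CPM in DR. The neutrophil list overlapped too, at 5.71 to 7.67 CPM in AL and 2.90 to 13.4 CPM in DR. So did B cell markers, at 70.1 to 187 CPM in AL and 37.6 to 283 CPM in DR. The part of all these cells in the result was not tested.

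**Figure D5:**
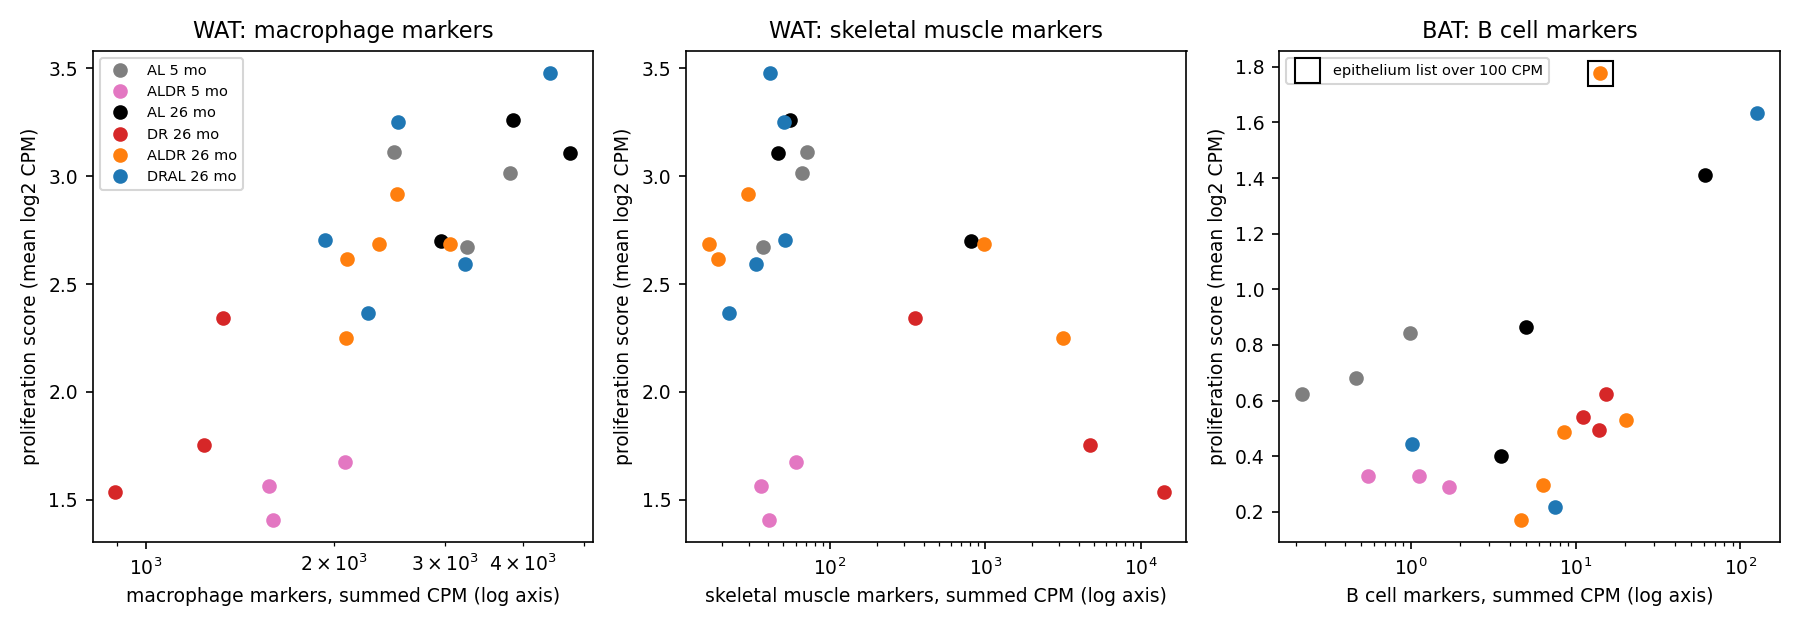
Proliferation score (y axis, mean log2 CPM) of each library against the summed CPM of macrophage markers in WAT, skeletal muscle markers in WAT and B cell markers in BAT (log x axes), coloured by group. WAT libraries with low scores have low macrophage sums, DR libraries with 4760 and 14110 CPM of muscle markers have the lowest scores at 26 months, and in BAT 2 libraries with B cell sums of 60.9 and 126 CPM and the boxed library with 355 CPM of epithelium markers have the highest scores.

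Among libraries of the same group most pairs of members varied in the same direction. After subtraction of group means the median Pearson r over 703 pairs of members was 0.58 across the 22 WAT libraries, with 685 pairs above 0, and 0.55 over 666 pairs in BAT, with 637 above 0. In the 6 liver libraries the median was 0.51 over 378 pairs, of which 288 were above 0 and the lowest was -0.94. Single members departed from this, with a median r to the other members of -0.32 for E2f1, -0.18 for Rrm2, -0.16 for Mcm7 and -0.08 for Cenpa in liver. In BAT the lowest such median was that of Cenpa, at -0.005. These points share library, depth and scaling, and the values are descriptions. Outside the member and pathway lists, the genes whose pattern was most like the score in WAT were Gm42743 (r 0.95) and the replication-dependent histone genes Hist1h4f (0.94), Hist1h2ao (0.94), Hist1h2ak (0.94) and Hist2h2ac (0.93), over 22 libraries. In BAT they were B4galnt1 (0.97), Tmem173 (0.95), Lmnb1 (0.95), Ikzf4 (0.94) and Cytip (0.93), over 20 libraries.

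BAT held few differences in the members. Restriction at 5 months called 0 of 37 members tested (14.4% of genes were called), with a median log2 fold change of -0.41, 3 unadjusted p-values under 0.05 and 2 calls by DESeq2. The proliferation score was 0.68, 0.84 and 0.62 in AL and 0.29, 0.33 and 0.33 in ALDR, so the groups did not overlap although no member passed. Mki67 measured 4.94, 3.94 and 5.89 CPM in AL and 1.17, 1.59 and 3.37 CPM in ALDR (log2 fold change -1.25, SE 0.87, adjusted p 0.368). Foxm1 measured 1.85, 2.30 and 2.46 CPM in AL and 1.48, 1.10 and 0.843 CPM in ALDR (log2 fold change -0.96, SE 0.32, adjusted p 0.0525). Top2a measured 2.16, 3.48 and 2.4 CPM in AL and 1.25, 1.65 and 1.57 CPM in ALDR, and Mcm2 3.40, 3.68 and 3.17 CPM and 2.5, 2.14 and 2.64 CPM. Both were lower in every ALDR library than in every AL library, and neither passed. Cdk1 measured 0.926, 0.591 and 0.491 CPM in AL and 1.09, 0.0611 and 0.674 CPM in ALDR, and Ccnb1 0.540, 0.525 and 0.437 CPM and 0.780, 0.978 and 0.674 CPM. Cdk1 overlapped between the groups, Ccnb1 was higher in every ALDR library than in every AL library, and neither passed. Pcna measured 21.5, 25.1 and 23 CPM in AL and 28, 25.2 and 21.6 CPM in ALDR, and E2f1 0.772, 1.45 and 1.25 CPM and 1.72, 1.34 and 1.07 CPM, with overlapping groups. Without the 3 libraries of other groups that were rich in B cell or epithelial markers 5 members were called lower, where 10.6% of all genes were. Markers of other cells also differed between these groups: the epithelium list summed to 4.53 to 10.4 CPM in AL and 29.8 to 68.2 CPM in ALDR, the mesothelium list to 5.512 to 6.304 and 20.2 to 36.9 CPM, and the neutrophil list to 0.218 to 1.77 and 6.003 to 9.607 CPM. Lower in ALDR were the endothelium list, at 999.8 to 1091 CPM in AL and 796 to 891 CPM in ALDR, and the brown adipocyte list, at 7214 to 9760 and 4469 to 6199 CPM. Their part in the result was not tested.

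At 26 months 3 BAT libraries stood apart. The score was 0.40, 1.41 and 0.86 in AL, 0.62, 0.54 and 0.49 in DR, 0.17, 0.53, 0.49, 0.30 and 1.78 in ALDR and 1.63, 0.22 and 0.44 in DRAL. The high libraries were AL replicate 2 and DRAL replicate 1, with B cell markers summing to 60.9 and 126 CPM and plasma cell markers to 129 and 170 CPM, and ALDR replicate 5, with epithelium markers at 355 CPM and neutrophil markers at 103 CPM. In the other BAT libraries B cell markers reached at most 20.3 CPM and epithelium markers at most 68.2 CPM, and the part of these cells in the scores was not tested. Top2a followed the same libraries, at 1.17, 6.91 and 3.24 CPM in AL, 2.72, 2.61 and 1.71 CPM in DR, 1.05, 1.73, 1.71, 1.65 and 9.85 CPM in ALDR and 10.5, 0.859 and 1.96 CPM in DRAL. Mki67 was high in the same libraries, at 2.62, 13.4 and 5.35 CPM in AL, 3.80, 3.91 and 2.56 CPM in DR, 1.27, 3.29, 4.11, 3.35 and 20.6 CPM in ALDR and 14.5, 1.79 and 4.38 CPM in DRAL. So was Mcm2 in ALDR and DRAL, at 3.97, 4.25 and 4.65 CPM in AL, 3.01, 3.26 and 3.66 CPM in DR, 2.32, 2.30, 3.86, 3.13 and 8.76 CPM in ALDR and 6.91, 2.43 and 2.83 CPM in DRAL. Cdk1 was also highest in the same 3 libraries but stayed at or below 1.66 CPM. It measured 0.271, 1.14 and 0.588 CPM in AL, 0.430, 0.326 and 0.732 CPM in DR, 0.30, 0.732, 0.127, 0.398 and 1.66 CPM in ALDR and 1.43, 0.286 and 0.135 CPM in DRAL. Ccnb1 was as low, at 0.451, 0.951 and 1.29 CPM in AL, 1.07, 0.977 and 0.854 CPM in DR, 0.525, 0.784, 0.760, 0.909 and 1.41 CPM in ALDR and 1.6, 0.286 and 0.674 CPM in DRAL. Its highest values lay in DRAL replicate 1 and ALDR replicate 5. Of the transcription factors, Foxm1 in DR lay below AL and E2f1 in DR lay below ALDR, while the other pairs of groups overlapped. Foxm1 measured 1.26, 1.84 and 1.76 CPM in AL, 1.22, 0.815 and 1.10 CPM in DR, 1.35, 1.25, 0.950, 1.59 and 1.79 CPM in ALDR and 1.43, 1.57 and 0.809 CPM in DRAL. E2f1 measured 0.902, 1.27 and 1.82 CPM in AL, 1.15, 0.977 and 0.915 CPM in DR, 1.20, 1.67, 1.39, 1.59 and 2.11 CPM in ALDR and 2.11, 0.716 and 0.809 CPM in DRAL.

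Further members named by the rule for BAT were not called between ALDR and AL. Ube2c measured 1.44, 2.22 and 1.59 CPM in AL and 0.525, 0.523, 0.696, 0.568 and 1.92 CPM in ALDR, and Aurkb, the kinase of the chromosomal passenger complex, 0.361, 1.14 and 0.470 CPM and 0.225, 0.262, 0.127, 0.114 and 1.15 CPM. Kif20a measured 1.08, 1.90 and 1.29 CPM in AL and 0.974, 1.05, 1.20, 1.42 and 3.52 CPM in ALDR. Nusap1, a microtubule-bundling spindle protein, measured 0.541, 1.33 and 1.24 CPM in AL and 0.600, 0.575, 0.570, 0.455 and 1.73 CPM in ALDR. In ALDR these 4 genes were highest in replicate 5, the library with epithelium markers. Mcm7 measured 14.1, 18 and 14.6 CPM in AL and 13.6, 16.9, 17.6, 17.9 and 30.3 CPM in ALDR, and Mcm6 3.61, 8.18 and 5.41 CPM and 3.82, 6.01, 6.58, 6.99 and 16.1 CPM, again highest in ALDR replicate 5. Birc5, the passenger protein survivin, measured 0.361, 1.52 and 0.235 CPM in AL and 0.525, 0.105, 0.0633, 0.341 and 1.02 CPM in ALDR. Pcna did not follow these libraries, at 21.0, 22.7 and 22.0 CPM in AL, 28.7, 30.5 and 26.1 CPM in DR and 19.0, 25.6, 22.1, 20.8 and 23.2 CPM in ALDR and 24.9, 25.1 and 20.0 CPM in DRAL (DR against AL log2 fold change 0.37, SE 0.12, adjusted p 0.0549).

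DR against AL called 0 of 37 members in BAT (11.5% of genes were called), with 4 unadjusted p-values under 0.05, 0 calls by DESeq2 and a median log2 fold change of -0.49. ALDR against AL called 1 (1.3% of genes), Cenpa, at 7.31, 8.94 and 9.18 CPM in AL and 6.07, 5.65, 5.70, 4.89 and 5.31 CPM in ALDR (log2 fold change -0.62, SE 0.14, adjusted p 0.0294). Cenpa was also the only call between ALDR and DRAL (2.02% of genes), where DRAL measured 7.84, 9.45 and 7.15 CPM (log2 fold change -0.56, SE 0.14, adjusted p 0.0416). Within groups Cenpa was the member least like the others in BAT, with a median r of -0.005 to them. In both comparisons the groups did not overlap, and without the 3 B cell or epithelium-rich libraries both calls were lost while the log2 fold changes were of like size, -0.57 in each (adjusted p 0.106 and 0.148). The first was also lost without any AL library or without ALDR replicate 2 or 4, and the second without ALDR replicate 2, 3, 4 or 5 or DRAL replicate 1 or 2. DRAL against DR called Kif20a, a motor of cytokinesis (8.4% of genes were called), with 2.87, 1.22 and 1.82 CPM in DRAL and 0.573, 0.326 and 0.732 CPM in DR (log2 fold change 1.76, SE 0.50, adjusted p 0.0388). This call was lost without any of 5 of its 6 libraries in turn. ALDR against DR called 0 (5.21% of genes), with 4 unadjusted p-values under 0.05 and 1 call by DESeq2. DRAL against AL called 0 members and 0 genes in all, with 0 unadjusted p-values under 0.05 among the members and 0 calls by DESeq2. AL at 26 against 5 months (0.0795% of genes) and the interaction of diet and age (0.0144%) also called 0 members, with 1 and 2 unadjusted p-values under 0.05 and 0 calls by DESeq2.

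In liver the opposite late switches were compared, and 7 of the 28 members tested were called, 6 lower and 1 higher in ALDR, where 23.8% of all genes were called, 12.9% as lower and 10.9% as higher. The share of members called, 7 of 28, was near the share over all genes. The median log2 fold change was -0.55 against 0.00 over all genes. The lower members included 3 helicase subunits. Mcm2 measured 2.36, 2.54 and 2.67 CPM in ALDR and 4.92, 4.29 and 6.55 CPM in DRAL (log2 fold change -1.05, SE 0.22, adjusted p 0.00817), and this call held in each alternative. Mcm5 measured 1.48, 1.88 and 2.04 CPM in ALDR and 3.39, 2.49 and 4.80 CPM in DRAL (log2 fold change -0.96, SE 0.29, adjusted p 0.0372), a call lost in 6 of 11 alternatives. Mcm6 and Tyms, the thymidylate synthase, fell by 0.57 and 0.51, calls that were each lost in 8 of 11 alternatives, DESeq2 and the replicate block among them. Without ALDR replicate 1 the count of calls was 1, and without ALDR replicate 2, ALDR replicate 3 or DRAL replicate 3 it was 2.

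The mitotic calls in liver also changed with single libraries. Ccnb1 measured 0.337, 0.611 and 0.261 CPM in ALDR and 0.953, 1.16 and 4.92 CPM in DRAL (log2 fold change -2.47, SE 0.68, adjusted p 0.0266). Cdc20, which directs the anaphase-promoting complex, measured 0.538, 0.893 and 0.523 CPM in ALDR and 1.48, 1.42 and 6.25 CPM in DRAL (log2 fold change -2.17, SE 0.61, adjusted p 0.0279). The groups did not overlap, DRAL replicate 3 was several times above the other DRAL libraries, and without it neither gene was called. The call of Ccnb1 was also lost without ALDR replicate 1 or 3, and that of Cdc20 without any ALDR library. Mki67 measured 3.43, 3.38 and 2.61 CPM in ALDR and 2.44, 6.78 and 8.23 CPM in DRAL, and Top2a 3.43, 5.31 and 4.03 CPM in ALDR and 3.44, 4.51 and 16.3 CPM in DRAL; neither passed (adjusted p 0.116 and 0.228). The proliferation score was 1.24 in that library, 0.07 and 0.45 in the other DRAL libraries and 0.21 to 0.35 in ALDR. Cenpf, a kinetochore protein, measured 0.269, 0.658 and 0.314 CPM in ALDR and 0.847, 0.730 and 1.74 CPM in DRAL (adjusted p 0.0811), and Prc1 0.875, 0.564 and 0.837 CPM and 0.424, 1.24 and 3.66 CPM (adjusted p 0.205). Bub1b, a checkpoint protein, measured 1.82, 1.46 and 0.889 CPM in ALDR and 0.900, 1.59 and 2.7 CPM in DRAL (adjusted p 0.641), and Kif20a 1.28, 0.846 and 1.10 CPM and 0.847, 1.33 and 4.68 CPM (adjusted p 0.207). Tk1 moved the other way, at 64.7, 66.3 and 43.1 CPM in ALDR and 28.2, 38.8 and 41.5 CPM in DRAL (log2 fold change 0.68, SE 0.19, adjusted p 0.0257). It overlaps Afmid and Gm20708 on the opposite strand, and its call was lost with the replicate block and without ALDR replicate 1 or 2 or DRAL replicate 1 or 2. Cdk1 at 0.740, 0.846 and 1.26 CPM in ALDR and 0.794, 0.687 and 2.76 CPM in DRAL overlapped, as did Pcna at 45.6, 46.6 and 41.8 CPM in ALDR and 34.5, 37.4 and 45.2 CPM in DRAL. E2f1 measured 0.740, 0.329 and 0.314 CPM in ALDR and 0.635, 1.07 and 0.601 CPM in DRAL, and Foxm1, at 0.0673, 0.141 and 0.157 CPM in ALDR and 0.212, 0.129 and 0.30 CPM in DRAL, was too low to test.

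The liver pathway lists held shares of calls near or below the 23.8% of all genes called. Of 28 further replication genes tested 6 fell and 1 rose, with Tipin at -0.91 (SE 0.16, adjusted p 0.00358) and Ccne2, cyclin E2, at 1.74 (SE 0.35, adjusted p 0.00619). Of 30 further mitotic genes 3 fell and 1 rose (median -0.18), with Cenpw at -1.48 (SE 0.44, adjusted p 0.0343) and Spc25 at 1.96 (SE 0.23, adjusted p 0.000414). Ccnd1, the 1 call among 7 G1 genes tested, fell by 1.12 (SE 0.13, adjusted p 0.000369), and of 8 inhibitors and pocket proteins tested 2 were called, Rbl1 at -0.81 (SE 0.20, adjusted p 0.0179) and Rbl2 at 0.35 (SE 0.10, adjusted p 0.0305). Plasma cell markers summed to 436 to 551 CPM in ALDR and 768 to 1079 CPM in DRAL, and epithelium markers to 196 to 274 and 458 to 518 CPM, while macrophage markers overlapped at 539 to 855 and 553 to 674 CPM. Hepatocyte markers were higher in ALDR, at 91550 to 103000 CPM against 72400 to 81200 CPM in DRAL. The part of these cells in the liver differences was not tested.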

How the data were processed

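Raw read counts per gene were used as the authors deposited them, in 1 table per tissue. Per the submitters' processing notes, reads were trimmed with Trim Galore 0.3.7 and aligned with TopHat2 2.0.14 to GRCm38, and DESeq2 was used. The counting program, its strand setting and the annotation are not given in the sources used here. Counts were tested with edgeR 4.0.16 (R 4.3.3; filterByExpr with minimum count 10 and minimum total 15, TMM scaling, quasi-likelihood test), with all groups of a tissue in 1 fit and BH adjustment over all genes tested; a call is an adjusted p under 0.05. Levels are TMM-scaled CPM, and the score uses log2 CPM with a prior count of 2. The procedure was tested on simulated data. Libraries of a group differed by more than sampling noise (lowest chi-square per degree of freedom: WAT 10.4, BAT 8.16, liver 16.6). The labels call the libraries of a group biological replicates. Named with all values were Mki67, Top2a, Cdk1, Ccnb1, Mcm2, Pcna, Foxm1 and E2f1, and in each tissue, with the values of the comparison that chose them, up to 2 members of each role with the smallest p. Of a pathway list up to 2 called genes per direction were named. Members that missed the threshold, such as Aurka, Cenpa, Mcm4 and Mcm7, and Ccnb2, Prc1 and Ube2c, were named after their values were seen. The members and lists were chosen with earlier results of these data known. Alternatives were DESeq2 1.42.0, RLE scaling, no filter, the compared groups alone, a replicate block, a muscle covariate and leaving out libraries.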

Additional observations from a re-analysis of the deposited data

Results flagged for a closer look

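In the 49 groups of values examined for a sample far from the others, 13 held one by Dixon's criterion, with the gap to the nearest sample given here as a share of the group's range. Chance alone gives such a sample in about 5% of groups. BAT ALDR replicate 5 at 26 months accounted for 10 of the 13. It had the highest proliferation score (1.78, gap 0.777) and the highest level of Mki67 (20.6 CPM, gap 0.853), Top2a (9.85 CPM, 0.923), Mcm2 (8.76 CPM, 0.759), Mcm7 (30.3 CPM, 0.744), Mcm6 (16.1 CPM, 0.741), Ube2c (1.92 CPM, 0.876), Aurkb (1.15 CPM, 0.858), Nusap1 (1.73 CPM, 0.886) and Kif20a (3.52 CPM, 0.824). These values come from 1 library and share its RNA. In WAT, ALDR replicate 4 was highest for Cdk1 (8.21 CPM, gap 0.731), ALDR replicate 2, the library with muscle and hepatocyte RNA, was lowest for Pcna (48.3 CPM, gap 0.751), and DRAL replicate 4 was highest for Pcna (70.6 CPM, gap 0.79). Counts of 4 Y-linked genes exceeded 3 in 4 of the 6 liver libraries although all mice are labelled female. ALDR replicates 1 and 3 held 20 and 14 such counts and DRAL replicates 1 and 2 held 13 and 11, against at most 2 in a WAT library and 0 in BAT. With these counts as a covariate the number of members called in liver stayed within 1.5 times of 7.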

How the results depend on the processing

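No call of a member reversed its sign in any alternative run. Calls held throughout for 22 of 32 members in WAT ALDR against AL at 5 months, for Cdk1 among 29 in DR against AL and for Mcm2 among 7 in liver, and for no call in the other comparisons. Leaving out 1 library at a time gave 24 to 31 calls at 5 months, 12 to 28 for DR against AL, 2 to 18 for ALDR against DR, 12 to 27 for DRAL against DR, 0 to 2 for ALDR against DRAL, 0 to 1 for diet by age and 1 to 5 in liver, and 0 to 0 for ALDR or DRAL against AL and for age. In BAT it gave 0 to 2 for ALDR against AL, 0 to 1 for ALDR against DR, DRAL against DR, ALDR against DRAL and ALDR against AL at 5 months, and 0 elsewhere. With only the groups compared the counts were 18 for WAT DR against AL, 1 for ALDR against DR, 0 for ALDR against DRAL and 1 for diet by age, and in BAT 1 for DR against AL, 0 for ALDR against AL and against DRAL, and 3 at 5 months. With the muscle covariate they were 4, 1, 1, 0 and 1 for WAT DR against AL, ALDR against DR, DRAL against DR, ALDR against DRAL and diet by age, and 0 for BAT ALDR against AL, DRAL against DR and ALDR against DRAL. Without the muscle-rich libraries they were 1, 0, 0, 0 and 2 for those WAT comparisons, and the score differences fell in size to -0.68 for DR against AL, 0.38 for ALDR against DR and 0.53 for DRAL against DR. Without the hepatocyte-rich libraries ALDR against DR gave 16. DESeq2 gave 15 for WAT ALDR against DR, 3 for diet by age, and 1 for BAT ALDR against DR and 2 at 5 months; RLE scaling gave 1 for BAT ALDR against DR. Without the filter, WAT and BAT ALDR against DRAL gave 0. Without the B cell or epithelium-rich libraries BAT gave 0, 0 and 5 for ALDR against AL, ALDR against DRAL and 5 months. The median over members in place of the mean gave a score difference of -1.73 in WAT and -0.25 in BAT at 5 months, and a prior count of 0.5 gave -0.48 in BAT. Leaving out 1 library, the score difference ran from -1.52 to -1.30 in WAT at 5 months, from -1.38 to -0.97 for DR against AL and from -0.58 to 0.01 in liver, and it changed sign in BAT for ALDR against AL (-0.52 to 0.02), ALDR against DR (-0.18 to 0.22), DRAL against DR (-0.22 to 0.49), DRAL against AL (-0.56 to 0.15), ALDR against DRAL (-0.39 to 0.32) and age (-0.08 to 0.42), and in WAT for age (-0.04 to 0.25). The replicate block gave 3 for WAT ALDR against DR, 0 for ALDR against DRAL, 3 in liver, and 2, 0, 0 and 2 for BAT DR against AL, ALDR against AL, ALDR against DRAL and 5 months. Deviations of same-numbered libraries correlated at 0.00 on average in WAT (single pairs -0.647 to 0.579), -0.02 in BAT and -0.19 over 3 pairs in liver. Of the libraries, 5 of 22, 4 of 20 and 0 of 6 correlated best with their own number. These values cannot decide whether the replicate numbers mark a pairing, because single pairs vary widely and liver has few. Except where the construction shows it (fewer samples or genes), the cause of the shifts between alternatives was not tested. The counts of calls in this section stand without the share of all genes called in the same fits. Mitotic members near the level of 3 counts limit what liver and BAT can show.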

Other observations

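The promoter motifs were set beside the size of the change in WAT at 5 months, as a description over members with a window. The median log2 fold change was -1.42 in 18 members with a CHR element and -1.18 in 14 without, -1.32 in 9 with an E2F site and -1.43 in 23 without, and -1.41 in 25 with a CCAAT box and -1.04 in 7 without. The ranges overlapped for each motif, and members may hold more than 1 of them. The 6 members whose windows held none of the 3 motifs, Tk1, Birc5, Nusap1, Mybl2, E2f1 and Tyms, were all called lower, as were 32 of all 38 members and 14.4% of all genes.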
